A study of Mus musculus with 12 samples.

Results

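The 10 antiviral interferon-stimulated genes (ISGs) Ifit1, Ifit2, Ifit3, Isg15, Oasl1, Oas2, Oas3, Mx1, Ifi44 and Bst2 were followed in 12 A20 lymphoma tumors. They were chosen by gene symbol, and all 10 of 10 were found among the 770 genes of the nCounter mouse PanCancer Immune Profiling Panel, a multiplex assay that counts barcoded probes hybridized to RNA. A20 is a B cell lymphoma line of Balb/c origin, and its cells were implanted under the skin of female Balb/c mice aged 7 to 8 weeks. About 7 days later the tumors of 4 mice each were injected with PBS, with a 2% stable oil-in-water emulsion alone (SE), or with 10 µg of the synthetic TLR4 agonist glucopyranosyl lipid A (GLA) in 50 µl of the 2% emulsion (GLA-SE, also called G100). All 12 mice received 3 injections, one every other day, and the tumors were collected 2 h after the last one, so every group carried the effects of repeated injection into a growing tumor. The tumors were wild-type A20 cells with the host's own cells in them, and each sample was 1 whole tumor of 1 mouse. Values below are scaled counts, that is, deposited counts divided by the level of 16 reference genes in the same tumor.

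Interferons bind receptors that signal through JAK kinases and STAT transcription factors, and the activated factors then bind interferon-stimulated response elements in the promoters of ISGs. Their products block viruses at several steps, by binding foreign RNA, by making the 2′-5′ oligoadenylates that activate RNase L, by tagging proteins or by holding budding particles at the cell surface. TLR4, unlike most Toll-like receptors, can also reach this program through the adaptor TRIF and the factor IRF3, which induce interferon beta.

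The response element has the core GAAANNGAAA, that is, GAAA repeated after any pair of bases, and it was searched on both strands of promoter windows of RefSeq (build GRCm38.p6), each reaching from 250 bases before to 50 bases after a gene's start. 8 of the 10 genes had a window, and 5 of these 8 genes held the core, against 50 of the 549 tested panel genes with a window (9.11%), 3.99% of all genes in the table and 1131 of its 32851 windows (3.44%). The 60-base stretches that hold the core are shown, since it is the sequence through which this gene class is known to respond. They are written 5′ to 3′ on the gene's strand, and capitals mark every base that belongs to a core. Overlapping cores run together, and TTTC repeats are cores read on the opposite strand.
Isg15, chr4:156200856-156200915, minus strand: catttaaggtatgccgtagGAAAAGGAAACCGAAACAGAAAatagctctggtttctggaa
Oas3, chr5:120777700-120777759, minus strand: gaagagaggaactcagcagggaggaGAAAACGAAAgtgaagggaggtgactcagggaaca
Bst2, chr8:71537565-71537624, minus strand: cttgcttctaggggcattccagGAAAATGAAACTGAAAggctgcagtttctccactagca
Ifit3, chr19:34583365-34583424, plus strand: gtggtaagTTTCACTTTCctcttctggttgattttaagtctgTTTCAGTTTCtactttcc
Ifit1, chr19:34640769-34640828, plus strand: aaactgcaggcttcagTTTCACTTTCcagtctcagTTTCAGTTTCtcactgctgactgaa
Isg15 held 3 overlapping cores, between 78 and 57 bases before its start, Bst2, Ifit3 and Ifit1 held 2 each, and Oas3 held 1. These letters were not found in the windows of Ifit2, Oasl1 and Ifi44, and Oas2 and Mx1 had no entry. A match is a description of the sequence and was not set against the counts.

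Total counts per tumor ranged from 810260 to 1612415. All 20 reference genes of the panel had a geometric mean of 1460 in SE replicate 3 and 959.2 in SE replicate 4. In the other 10 tumors it was 1659 to 2587. Counts were divided by factors from 16 of these genes, 0.7764 and 0.4794 in SE replicates 3 and 4 and 0.8759 to 1.452 elsewhere. The scaling therefore raised these 2 SE tumors most. Their deposited counts are given below beside the statements on the 10 genes that rest on them. The 8 B cell markers fixed for the A20 cells had a mean log2 level of 9.87 to 10.28 over the 12 tumors, with overlapping ranges in the 3 groups. No gene of the panel was listed at 0, the lowest deposited count was 1, and the labels named no batch. With bulk tumors, fewer cells of a type and less RNA per cell cannot be told apart.

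Against PBS, 9 of the 10 antiviral ISGs were higher in GLA-SE tumors at an adjusted p under 0.05 (edgeR quasi-likelihood test, n = 4 per group), namely all except Mx1, and in the same 9 every GLA-SE tumor lay above every PBS tumor; on a scale set to the median of the panel 3 stayed higher and Bst2 and Mx1 turned lower. The background was wide, since 68.4% of the 750 genes tested were called higher and 63.7% had higher, non-overlapping groups. The count of 9 is therefore read beside the sizes. The median log2 fold change was 1.58 for the 10 genes and 0.90 for the panel, and 8 of the 10 lay above the panel median. The genes were chosen with earlier results of these data known, so this distance is a description and no test.

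**Figure D1:**
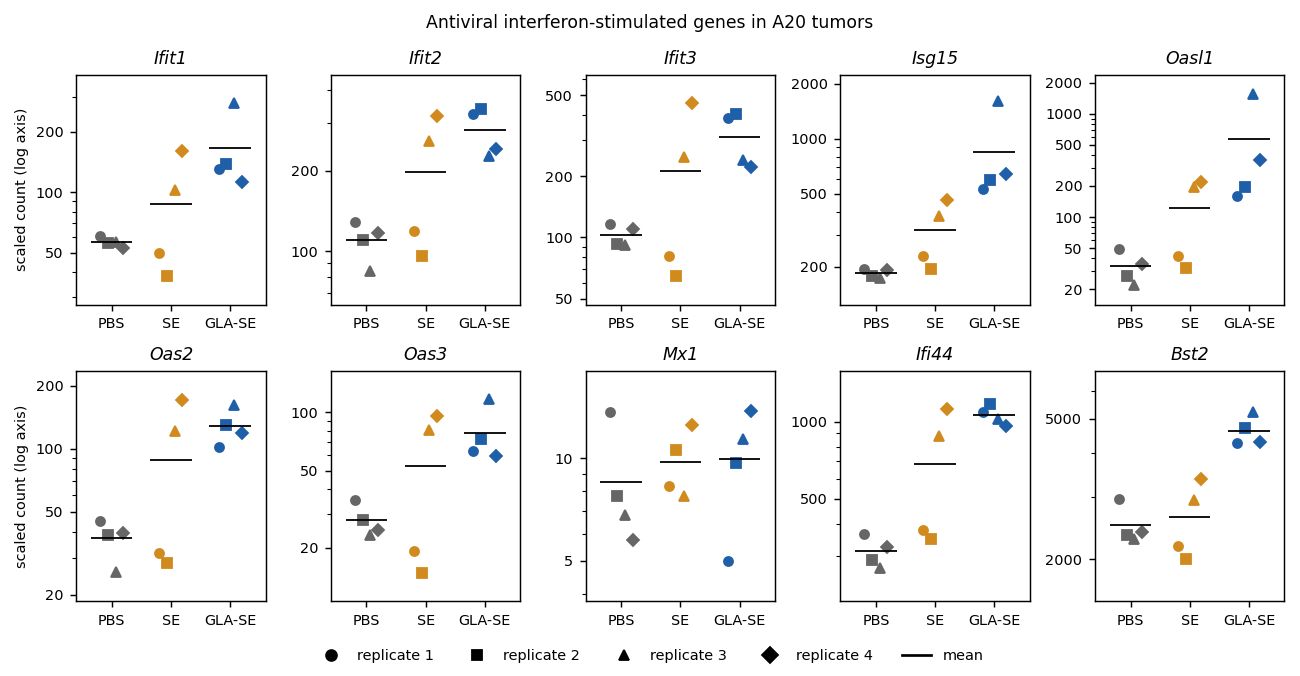
Scaled counts (log axis) of the 10 antiviral ISGs in each tumor, with the replicate given by the symbol and the group mean by a line, for 4 tumors per group. For 9 genes all GLA-SE tumors lie above all PBS tumors on this scale (with panel median scaling Bst2 and Mx1 are lower), and Mx1 stays between 5.00 and 13.75 throughout. For all genes except Bst2 and Mx1 the SE tumors split into replicates 1 and 2 near PBS and replicates 3 and 4 above all PBS tumors.

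The Ifit genes encode tetratricopeptide repeat proteins that bind viral RNA, Ifit1 at its unmethylated cap. Ifit1 was 60.8, 56.0, 56.7 and 52.6 scaled counts in PBS replicates 1 to 4, 49.6, 38.1, 103.0 and 160.6 in SE replicates 1 to 4, and 130.1, 138.8, 279.7 and 113.1 in GLA-SE replicates 1 to 4. The PBS tumors were tightly grouped, SE replicates 1 and 2 lay below all of them, and SE replicate 4 reached into the GLA-SE range only after scaling, with 77 deposited counts against 107 to 245 in GLA-SE. Ifit1 rose by a log2 fold change of 1.55 (SE 0.31, adjusted p = 0.00273 by edgeR) between PBS and GLA-SE, from 56.5 ± 3.34 to 165.4 ± 76.9 (SD, n = 4), which is 0.65 above the panel median.

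Ifit2 was 128.4, 110.1, 84.6 and 116.7 scaled counts in the PBS tumors, 118.5, 96.2, 257.6 and 321.2 in the SE tumors, and 324.2, 341.0, 226.1 and 240.0 in the GLA-SE tumors. SE replicates 3 and 4 lay inside the GLA-SE range, while SE replicates 1 and 2 lay inside the PBS range; on deposited counts SE replicate 4, at 154, was below all GLA-SE tumors (198 to 324). The difference between GLA-SE and PBS was 1.36 on the log2 scale (SE 0.21, adjusted p = 0.000879 by edgeR), 0.46 above the panel median. Ifit3, which stabilizes Ifit1 on RNA, was 116.6, 92.7, 91.4 and 110.1 in the PBS tumors, 81.3, 64.5, 248.6 and 458.9 in the SE tumors, and 386.2, 403.4, 239.8 and 222.1 in the GLA-SE tumors. SE replicate 4 had the highest scaled value of all 12 tumors, but its deposited count of 220 lay below the 386 and 375 of GLA-SE replicates 1 and 2. GLA-SE exceeded PBS by 1.61 (log2, SE 0.24, adjusted p = 0.000763 by edgeR), 0.71 above the panel median. The mouse genome holds a near-identical copy, Ifit3b, and the sources used here do not say whether the Ifit3 probe separates them. Within GLA-SE the 3 Ifit genes did not order the tumors alike, since replicate 3 was the highest for Ifit1 and the lowest for Ifit2.

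Isg15, a ubiquitin-like protein that is attached to other proteins during the interferon response, was 195.0, 178.7, 173.8 and 193.2 scaled counts in the PBS tumors. It was 229.4, 195.6, 381.2 and 463.1 in the SE tumors and 532.3, 592.8, 1607.5 and 646.1 in the GLA-SE tumors. The 3 groups did not overlap, with SE between the others, although the lowest SE tumor was within 1 scaled count of the highest PBS tumor, and on deposited counts SE (185 to 333) and PBS (185 to 235) overlapped. From 185.2 ± 10.5 to 844.7 ± 511 (SD, n = 4) the log2 fold change of GLA-SE over PBS was 2.19 (SE 0.36, adjusted p = 0.00109 by edgeR), 1.29 above the panel median. GLA-SE replicate 3 stood far above the other 3, and without it the log2 fold change was 1.67 (adjusted p = 6.12e-05 by edgeR).

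The oligoadenylate synthetase family showed both the largest change of the 10 genes and 2 of middle size. Oasl1, a family member without synthetase activity that holds back translation of Irf7, was 49.0, 27.1, 21.9 and 35.4 scaled counts in the PBS tumors and 42.0, 31.7, 194.5 and 219.0 in the SE tumors. In the GLA-SE tumors it was 161.1, 193.7, 1555.0 and 358.5. All GLA-SE values were above all PBS values, and GLA-SE replicates 1 and 2 lay below SE replicates 3 and 4, but above them on deposited counts (161 and 180 against 151 and 105). The log2 fold change of GLA-SE over PBS was 4.09, or 17-fold (SE 0.79, adjusted p = 0.00241 by edgeR), rank 4 of 750 by size. It rested in part on GLA-SE replicate 3, without which it was 2.84 (adjusted p = 0.000332 by edgeR).

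Oas2 and Oas3 make 2′-5′ oligoadenylates when they bind double-stranded RNA. Oas2 was 45.1, 38.6, 25.7 and 39.5 scaled counts in the PBS tumors, 31.7, 28.5, 121.1 and 171.0 in the SE tumors, and 102.1, 129.1, 162.1 and 118.4 in the GLA-SE tumors. SE replicate 4 was the highest of all 12 tumors only after scaling, since its deposited count was 82 against 102 to 142 in GLA-SE. The log2 fold change of GLA-SE over PBS was 1.78 (SE 0.25, adjusted p = 0.000487 by edgeR), 0.88 above the panel median. Oas3 was 35.3, 28.0, 23.4 and 24.7 in the PBS tumors, 19.3, 14.8, 81.1 and 96.0 in the SE tumors, and 63.0, 73.2, 117.6 and 59.2 in the GLA-SE tumors. SE replicates 1 and 2 were below every PBS tumor, and SE replicates 3 and 4 were above 3 of the 4 GLA-SE tumors, but their deposited counts of 63 and 46 compare with 56 to 103 in GLA-SE. Oas3 differed between GLA-SE and PBS by 1.49 (log2, SE 0.28, adjusted p = 0.00204 by edgeR), 0.59 above the panel median, and in a fit of all 12 tumors its adjusted p was 0.0574.

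Mx1, a dynamin-like GTPase that blocks influenza virus in strains with an intact allele, was 13.7, 7.73, 6.80 and 5.75 scaled counts in the PBS tumors, 8.27, 10.6, 7.73 and 12.5 in the SE tumors, and 5.00, 9.68, 11.4 and 13.75 in the GLA-SE tumors. The groups overlapped fully, and the deposited counts were 5 to 14 in every tumor, near the low end of the assay. The log2 fold change of GLA-SE over PBS was 0.24 (SE 0.37, adjusted p = 0.579 by edgeR; exact permutation p = 0.571, two-sided). Many laboratory strains, Balb/c among them, carry a defective Mx1 allele, and RefSeq lists the gene in the reference strain as a transcribed pseudogene on chromosome 16.

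Ifi44, a cytoplasmic ISG product of the Ifi44 family with antiviral activity, was 365.5, 289.8, 269.7 and 326.3 scaled counts in the PBS tumors, 379.5, 349.9, 882.3 and 1122.2 in the SE tumors, and 1094.6, 1170.5, 1019.5 and 961.2 in the GLA-SE tumors. The GLA-SE tumors were close to each other, and SE replicate 4 lay among them after scaling, while its deposited count was 538 against 893 to 1094. From 312.8 ± 42.2 to 1061.5 ± 90.9 (SD, n = 4) the log2 fold change was 1.76 (SE 0.14, adjusted p = 9.8e-05 by edgeR), with the smallest adjusted p of the 10 genes. Bst2, or tetherin, which holds enveloped viruses at the cell surface and is also carried by B lineage cells, was 2970.2, 2345.3, 2281.8 and 2380.5 in the PBS tumors, 2184.1, 1995.9, 2941.7 and 3385.4 in the SE tumors, and 4285.2, 4697.2, 5215.2 and 4285.7 in the GLA-SE tumors. All GLA-SE tumors were above all others. The log2 fold change over PBS was 0.89 (SE 0.12, adjusted p = 0.000386 by edgeR), which is 0.01 below the panel median.

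**Figure D2:**
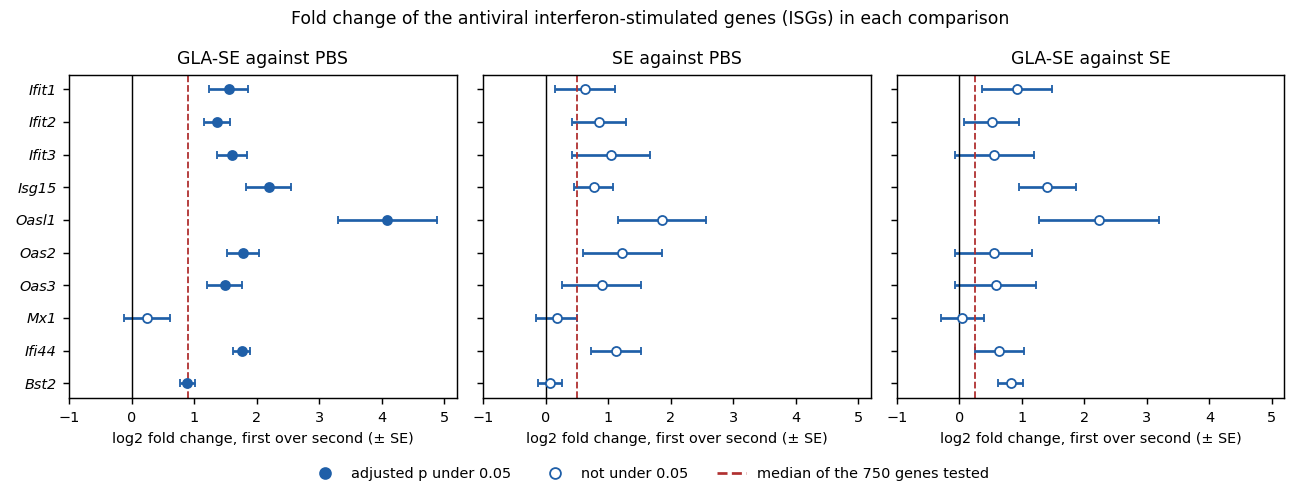
Log2 fold change (first group over second, ± SE, n = 4 per group) of each antiviral ISG in the 3 comparisons, with filled points for an adjusted p under 0.05 and a dashed line for the median of the 750 genes tested. On the reference-gene scale 9 genes are called higher in GLA-SE than in PBS, with Bst2 at the panel median of 0.90 (lower than PBS, with Mx1, under panel median scaling), and none is called in the other 2 comparisons.

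For each of the 9 genes the exact permutation test of 4 against 4 tumors gave p = 0.0286 (two-sided, not adjusted for the 30 tests). That is the smallest value it allows, and groups that do not overlap always reach it. The test therefore restates the lack of overlap, which in the higher direction 63.7% of the panel shared. All 9 stayed called by edgeR whichever of the 8 tumors was left out. The calls depended on the scale, since the panel as a whole was higher in GLA-SE tumors relative to the reference genes. With each tumor scaled to the median of the 750 genes, Isg15 (0.81), Oasl1 (2.65) and Ifi44 (0.50) were called higher, Bst2 (-0.40, adjusted p = 0.0131 by edgeR) and Mx1 (-1.03, adjusted p = 0.0339 by edgeR) were called lower, and the 5 others lay between 0.11 and 0.49 without a call. On that scale 8.27% of the panel was called higher and 40.9% lower, and the panel median was -0.40. With TMM 7 genes were called higher, without Ifit2 and Bst2. The distance of the 10 genes' median from the panel median was 0.63 to 0.68 log2 under the 12 settings that kept all tumors, and 8 or 9 of the 10 lay above the panel median.

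**Figure D3:**
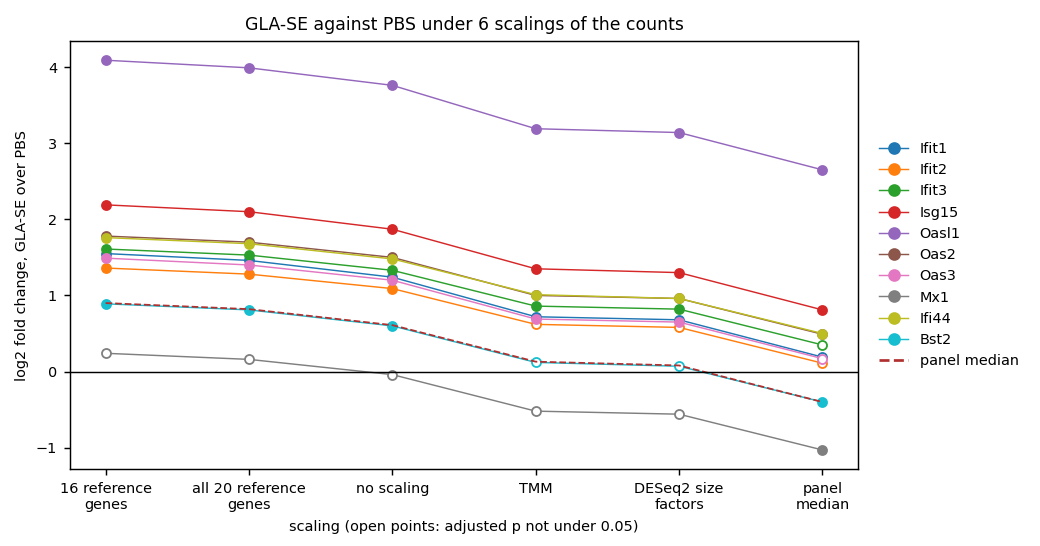
Log2 fold change of GLA-SE over PBS for each antiviral ISG under 6 scalings of the counts, with open points where the adjusted p was not under 0.05 and a dashed line for the panel median. The lines run in parallel: the panel median falls from 0.90 to -0.40, Bst2 follows it and turns lower, Mx1 turns lower as well, and the other 8 stay above 0.

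The emulsion alone was compared with PBS to separate its effect from that of GLA. None of the 10 antiviral ISGs was called in SE against PBS (edgeR, n = 4 per group), beside 0% of the panel, while 3 had an unadjusted p under 0.05 (133 of 750 in the panel) and none was called by DESeq2 or limma. The 3 were Oasl1 with a log2 fold change of 1.86 (SE 0.70), Ifi44 with 1.13 (SE 0.40) and Isg15 with 0.77 (SE 0.31), each with an adjusted p of 0.257. Isg15 was the only one of the 10 whose groups did not overlap (exact permutation p = 0.0286), against 8% of the panel. The others ranged from 0.07 for Bst2 to 1.23 for Oas2 with SEs of 0.19 to 0.63, and missing the threshold does not show that SE and PBS tumors were alike for them. The median was 0.87, and 0.51 for the panel. Under panel median scaling Ifit1, Mx1 and Bst2 had negative values without a call.

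The SE tumors were split. Scaled, 2 of the 10 genes in SE replicate 1 and 1 in replicate 2 lay above all PBS tumors, and 8 in replicate 3 and 9 in replicate 4, beside 20.8%, 19.6%, 72.4% and 79.7% of the panel in the same tumors. On the scaled counts the panel split in the same way. On deposited counts its median log2 ratio to the PBS mean was 0.232, -0.422, 0.001 and -0.039 in SE replicates 1 to 4, without that split. Scaled, the genes' median log2 ratio to the PBS mean was -0.11, -0.26, 1.25 and 1.67 in SE replicates 1 to 4, and 1.49, 1.66, 1.89 and 1.12 in GLA-SE replicates 1 to 4. On this scale SE replicates 3 and 4 were within the range of the GLA-SE tumors, and SE replicates 1 and 2 slightly below PBS. The panel median moved with them, at -0.11, -0.14, 0.57 and 1.22 in SE replicates 1 to 4 and 0.68 to 1.07 in the GLA-SE tumors. SE replicate 4 was the highest SE tumor for all 10 genes and SE replicate 2 the lowest for 9, all except Mx1.

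**Figure D4:**
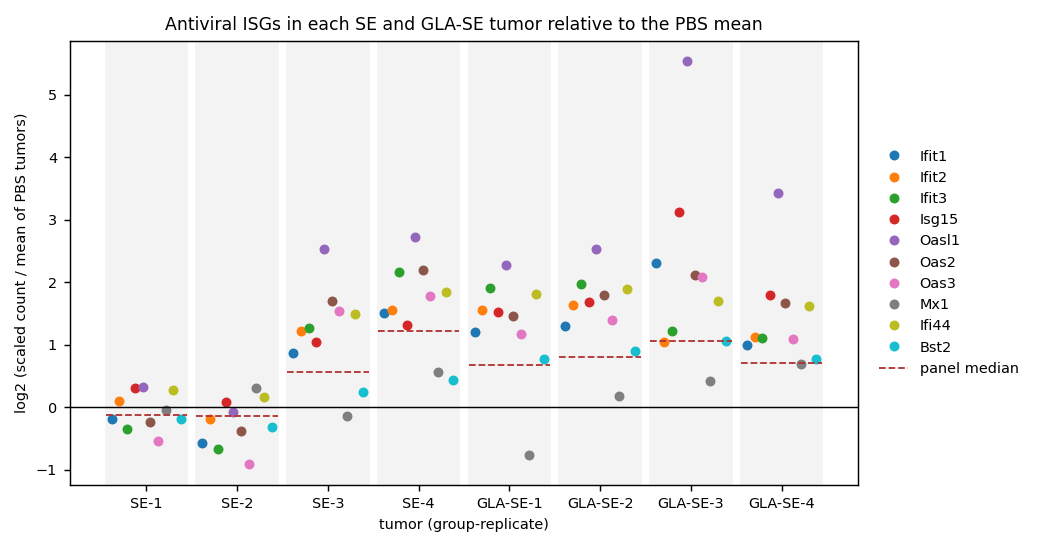
Log2 ratio of the scaled count to the mean of the PBS tumors for the 10 antiviral ISGs (points, one color per gene) in each SE and GLA-SE tumor, with the panel median of that tumor as a dashed line. SE replicates 1 and 2 lie around 0 and SE replicates 3 and 4 reach the level of the GLA-SE tumors on this scale, where the panel median is also higher (on deposited counts the genes' medians of 0.70 and 0.42 in these 2 tumors lie below all GLA-SE tumors), and Oasl1 in GLA-SE replicate 3 is the highest point.

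On the deposited counts, where the low reference genes of SE replicates 3 and 4 play no part, 5, 0, 8 and 7 of the 10 genes lay above all PBS tumors in SE replicates 1 to 4, and 9 in each GLA-SE tumor. The shares of the panel were 47.2%, 3.07%, 34.5% and 38.8% in the SE tumors and 57.6% to 68.3% in the GLA-SE tumors. Replicates 3 and 4 stood above PBS for most of the 10 genes before any scaling. Their median log2 ratios to the PBS mean were 0.70 and 0.42 on deposited counts, below the 0.85 to 1.52 of the GLA-SE tumors, and 3 and 2 of the 10 genes reached the lowest GLA-SE tumor, compared with 6 and 8 after scaling. Deposited counts also carry the total count, which was 939639 and 816604 in these 2 tumors against 1186487 to 1612415 in GLA-SE. Under panel median scaling the medians were 0.402 and -0.012, against 0.005 to 0.397 in GLA-SE. The order of these 2 SE tumors and the GLA-SE tumors thus depended on the scale. Bst2 did not follow: its deposited counts were 3171, 1888, 2284 and 1623 in SE replicates 1 to 4, so that it was lowest in the tumor where its scaled count was highest. The rise of Bst2 in SE replicate 4 was present only after scaling.

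Some markers of other cells were higher in the same SE tumors, on scaled counts, the only scale used for marker levels. The 7 monocyte and macrophage markers, all measured, had a mean log2 level of 9.32 to 9.84 in PBS tumors, 9.20, 8.97, 11.23 and 11.83 in SE replicates 1 to 4, and 11.01 to 11.55 in GLA-SE tumors. The 6 neutrophil markers were at 4.81 to 5.00 in PBS, 4.71, 4.71, 5.73 and 6.71 in SE, and 5.75 to 7.54 in GLA-SE, where replicate 3, the tumor with the most Ifit1, Isg15 and Oasl1, was the highest. The 9 endothelial and fibroblast markers ran from 7.39 to 8.09 in PBS and from 8.39 to 9.43 in GLA-SE and reached 10.83 in SE replicate 4. T cell markers (6) were at 6.23 to 7.66 in PBS, 6.05, 6.30, 6.76 and 8.60 in SE replicates 1 to 4, and 7.52 to 8.03 in GLA-SE. NK cell markers (5) were at 5.72 to 7.04 in PBS, 5.82, 5.86, 6.92 and 7.03 in SE, and 7.38 to 7.53 in GLA-SE. SE replicate 3 for T cell markers, and SE replicates 3 and 4 for NK cell markers, thus lay inside the PBS range. The part of these cells in the ISG levels was not tested.

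GLA-SE was compared with SE to ask what GLA added to its carrier. None of the 10 antiviral ISGs was called by edgeR (n = 4 per group), beside 2.13% of the panel, and 3 had an unadjusted p under 0.05 (140 of 750 in the panel). Isg15 was higher in every GLA-SE tumor than in any SE tumor, with a log2 difference of 1.41 (SE 0.46, adjusted p = 0.149 by edgeR; exact permutation p = 0.0286). Bst2 was likewise higher in every GLA-SE tumor, by 0.82 (SE 0.20, adjusted p = 0.0845 by edgeR; exact permutation p = 0.0286). These 2 of 10 genes stand beside 14.7% of the panel with higher, non-overlapping groups. Oasl1 had the largest difference, 2.23 (SE 0.96, adjusted p = 0.264 by edgeR), with overlapping groups, and without GLA-SE replicate 3 it was 0.97 (adjusted p = 0.805 by edgeR).

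The calls on Isg15 and Bst2 depended on the tool, and that on Bst2 also on SE replicate 4. DESeq2 called both (adjusted p = 0.0162 and 0.0012), as did an edgeR fit of all 12 tumors (0.0414 and 0.0165), and without SE replicate 4 edgeR called Bst2 with a difference of 0.96 (adjusted p = 0.0208). Under panel median scaling 3 of the 10 genes changed sign without a call, among them Bst2 at -0.01 and Ifit2 at -0.07. For the 7 other genes the main differences ran from 0.05 for Mx1 to 0.92 for Ifit1, with SEs of 0.34 to 0.65, and the median over the 10 was 0.61, against 0.25 in the panel.

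The ligands that induce these genes were low in all tumors. On the reference-gene scale 5 of the 6 had no call in any comparison. Ifnb1, the interferon that the TRIF branch induces first, was 15.7, 15.45, 6.04 and 7.40 scaled counts in the PBS tumors, 10.3, 14.8, 10.3 and 12.5 in the SE tumors, and 8.004, 12.9, 13.7 and 12.7 in the GLA-SE tumors. On this scale the groups overlapped (GLA-SE over PBS 0.11 in log2, SE 0.36, adjusted p = 0.797 by edgeR). Deposited Ifnb1 counts were 8 to 12 in GLA-SE and 8 to 16 in PBS, at panel medians of 321 to 426.5 and 139.5 to 203.5. Set against the panel median of its tumor, every GLA-SE value lay below every PBS value. Mean scaled counts in GLA-SE and PBS tumors were 36.1 and 46.2 for Ifna1, 10.4 and 10.5 for Ifna2, 24.3 and 19.5 for Ifna4 and 25.3 and 27.4 for Ifnl2, without a call. Against PBS these 5 lay at -0.58 (Ifna4) to -1.25 (Ifna1) log2 from the panel median, so their lack of change depended on the scale. The interferon alpha genes are near-identical copies, and their probes may share targets. Levels this low, at 1 time point 2 h after the last injection, limit what can be seen of these 5 ligands.

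Ifng, the type II interferon made by T and NK cells, was the exception. It was 28.4, 12.6, 23.4 and 27.95 scaled counts in the PBS tumors, 26.9, 21.1, 30.9 and 22.9 in the SE tumors, and 40.0, 58.1, 82.2 and 55.0 in the GLA-SE tumors. On the reference-gene scale all GLA-SE tumors lay above all others, SE replicates 3 and 4 included. Against PBS, 63.7% of the panel had such higher, non-overlapping groups, and 14.7% against SE. Set against the panel median of each tumor, the groups overlapped. SE replicate 1 had 39 deposited counts at a panel median of 198.5, and GLA-SE replicate 1 had 40 at 333.5. PBS replicate 4 had 34 at 203.5. The log2 fold change over PBS was 1.34 (SE 0.32, adjusted p = 0.00606 by edgeR), 0.44 above the panel median. Over SE it was 1.20 (SE 0.32, adjusted p = 0.106 by edgeR, exact permutation p = 0.0286).

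The rest of the pathway was read from fixed lists, GLA-SE against PBS first and beside the same 68.4% of the panel. Of 16 other antiviral ISGs 15 were higher, with a median log2 fold change of 1.34, and Epsti1, at 4.73 scaled counts in PBS, was not called. Rsad2, or viperin, was at 154.1 ± 61.2 in GLA-SE and 23.7 ± 8.90 in PBS (log2 2.70, SE 0.40, adjusted p = 0.000689 by edgeR). Ifitm1, which hinders viral entry, differed by 1.81 (SE 0.19). Of 8 receptor and JAK-STAT genes 8 were higher (median 0.86), with Jak2 at 1.44 (SE 0.30).

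Of 7 interferon regulatory factors 6 were higher (median 0.92), led by Irf4 (1.72), a lymphocyte factor, and Irf7 (1.69), the ISG that drives interferon alpha genes, while Irf3 differed by 0.09. Of 5 sensors of RNA and DNA 4 were higher (median 0.93), among them Ifih1 (1.52) and Ddx58 (1.40), which sense viral RNA in the cytoplasm. Tlr3 was not called. Of 8 genes of the TLR4 and TRIF branch 6 were higher (median 0.55), with the LPS co-receptor Cd14 at 3.71 (SE 0.93; 2.00 without GLA-SE replicate 3) and the kinase Ikbke at 1.68, whereas the adaptors Ticam2 (-0.18) and Traf3 (0.20) were not called. Of 7 genes mainly induced by interferon gamma 6 were higher (median 1.56), with Gbp5 at 2.45, Cxcl9 at 1.79 and Ido1 at 0.90 without a call.

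**Figure D5:**
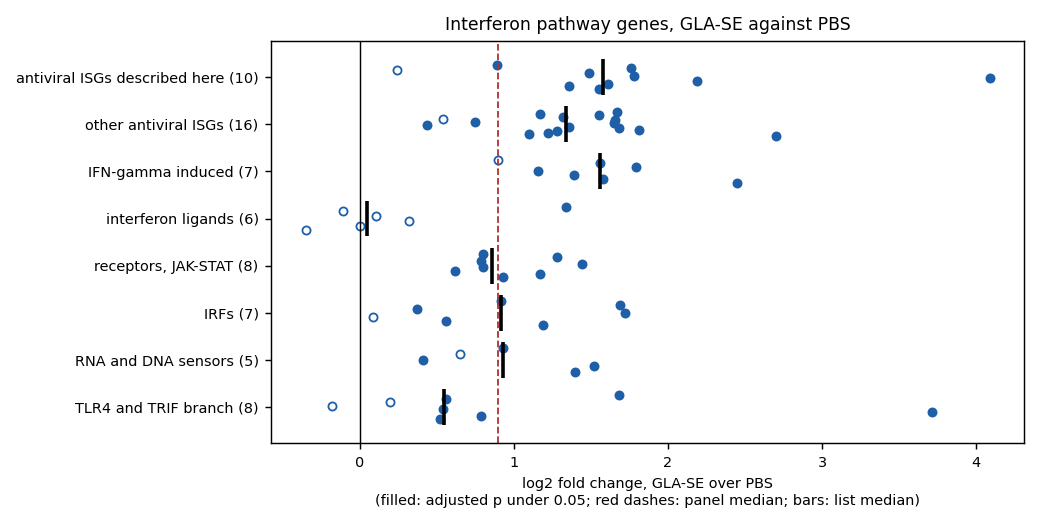
Log2 fold change of GLA-SE over PBS on the reference-gene scale for each gene of 8 lists (number of genes in parentheses), with filled points for an adjusted p under 0.05, black bars for list medians and a dashed line for the panel median of 0.90. The antiviral ISGs and the interferon gamma induced genes lie mostly above the panel median, the interferon ligands lie around 0 except Ifng at 1.34, and the values fall together under panel median scaling, where the panel median is -0.40.

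In SE against PBS no gene of these lists was called, and Rsad2 (1.78, SE 0.54, adjusted p = 0.257 by edgeR) and Irf7 (1.29, SE 0.42, adjusted p = 0.257 by edgeR) had the largest values among those named. In GLA-SE against SE the calls lay elsewhere than in the 10 antiviral ISGs. Of the 7 interferon gamma induced genes 3 were higher, beside 2.13% of the panel. They were Gbp5 by 1.97 (adjusted p = 0.0283 by edgeR), Gbp2b by 1.46 (adjusted p = 0.0116 by edgeR) and Cxcl9 by 1.42 (adjusted p = 0.0143 by edgeR). Irf1 (1.03, adjusted p = 0.0289 by edgeR) and Zbp1 (1.22, adjusted p = 0.0448 by edgeR), a sensor of left-handed nucleic acid, were also higher. Gbp2b, Irf1 and Zbp1 were named after their values were seen. With 1 of the 8 tumors left out in turn, Gbp2b was called in 7 fits, Cxcl9 in 6, Gbp5 and Irf1 in 3 each and Zbp1 in 1. The panel calls in this comparison went from 16 to 3 with TMM and to 0 with panel median scaling. On that last scale none of these genes was called. Whether the lists differ from the 10 antiviral ISGs in this comparison was not tested.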

How the data were processed

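Tumor RNA from 12 mice was hybridized to the probes of an nCounter immune panel. The authors deposited 1 table of counts, whole numbers of probes counted per gene and tumor. Their methods name nSolver for normalization, but totals and reference genes differ between tumors, so the counts were treated as not normalized. Whether spike-in controls were used is not given in the sources used here. Groups came from the sample titles, each tumor being 1 mouse. The stepwise geNorm procedure over all 12 tumors kept 16 of 20 reference genes, and counts were divided by their geometric mean. The 750 other genes were tested with edgeR 4.0.16 (quasi-likelihood, R 4.3.3) on the counts with these offsets, on the 8 tumors of each comparison, with no filter and Benjamini-Hochberg adjustment over 750 genes (threshold 0.05). Exact permutation tests, two-sided, used log2(scaled count + 1) and 70 assignments, and 30 were run for the 10 genes. Their p-values are given without adjustment for the number of tests. Cell type levels are mean log2(scaled count + 1) over a marker list. Alternatives were other scalings, a filter of 20 counts in 4 tumors, DESeq2 1.42.0, limma 3.58.1, 1 fit of 12 tumors, a replicate block and leaving out each tumor.

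The 10 genes and all lists were chosen with earlier results of these data known. Named in the text are the 10 genes, all ligands, and from each other list the 2 largest changes with an adjusted p under 0.05 in GLA-SE against PBS and a group mean of at least 20; 1 gene that this rule names is not reported here. In data simulated from GLA-SE against PBS with 200 of 750 genes changed, 66% of 2-fold and 99% of 4-fold changes were recovered. The shares were 16% and 63% for SE against PBS and 5% and 58% for GLA-SE against SE. As many genes were changed up as down and the scaling was taken as known. The shares therefore do not cover a shift of the whole panel or the choice of scale. Replicate numbers name separate mice, and same-numbered tumors did not deviate together (correlations of -0.248 to 0.184), so no pairing was used. All 10 symbols matched RefSeq, and promoter sequences are from RefSeq GRCm38.p6; the counts themselves rest on no genome build.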

Additional observations from a re-analysis of the deposited data

Results flagged for a closer look

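A tumor that stood far from the other 3 of its group was found in 4 of 30 sets of 4 tumors searched (10 genes in 3 groups), where a nominal rate of 5% gives about 1.5. In 3 of the 4 it was GLA-SE replicate 3, with 279.7 scaled counts of Ifit1 against 113.1 to 138.8 in the others, 1607.5 of Isg15 against 532.3 to 646.1, and 1555.0 of Oasl1 against 161.1 to 358.5. The same tumor was the lowest of its group for Ifit2, at 226.1. The fourth was Bst2 in PBS replicate 1, with 2970.2 scaled counts against 2281.8 to 2380.5, and PBS replicate 1 was the highest PBS tumor for all 10 genes. The nominal rate assumes normally distributed values, while the search used scaled counts without a log. The 10 genes also share their tumors, so the count of 4 does not show an excess over chance.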

How the results depend on the processing

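In GLA-SE against PBS, 174 of the 189 single-gene values under other settings kept their direction and their side of the threshold. Panel median scaling gave 5 called genes in place of 9 (3 higher, 2 lower), a median of 0.27 in place of 1.58, and reversed Mx1 (-1.03) and Bst2 (-0.40). The median was 0.79 with TMM and 0.75 with DESeq2 size factors, as the panel median fell to 0.13 and 0.08. Panel genes called went from 516 to 326 with TMM (193 higher, 133 lower), 330 with DESeq2 size factors (185 and 145) and 254 in the fit of all 12 tumors. In SE against PBS, DESeq2 called 38 panel genes in place of 0, none of them an antiviral ISG. In GLA-SE against SE, 2 antiviral ISGs in place of 0 were called with no scaling (a setting chosen after seeing the data), by DESeq2 and in the fit of all 12 tumors, and 0 to 1 when a tumor was left out. Panel genes called there were 16, and 0 with panel median scaling, 3 with TMM, 3 with DESeq2 size factors, 83 with no scaling, 106 by DESeq2, 79 in the fit of all 12 tumors, and 4 to 108 when a tumor was left out. They were 108 without SE replicate 4, 4 without GLA-SE replicate 4, 7 without SE replicate 2, 9 without SE replicate 1 or 3 and 10 without GLA-SE replicate 2. With a replicate block 9 antiviral ISGs were called in GLA-SE against PBS and 0 in the other comparisons, with 439 and 0 panel genes called in GLA-SE against PBS and GLA-SE against SE. The causes were not tested. The 4 tumors per group limit the precision, and so do counts of 5 to 14 for Mx1.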
